A study of Homo sapiens with 3 samples.

Results

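The EGF receptor family and its ligands were examined as 10 genes, namely the receptors EGFR, ERBB2, ERBB3 and ERBB4 and the ligands AREG, EREG, HBEGF, TGFA, EGF and BTC. Members were the array probes whose single gene symbol was one of these names. This gave 15 of 31741 probes on the array, for 9 of the 10 genes among 18282 named genes. The 4 receptors had 10 probes and 5 of the ligands had 1 probe each. AREG, the ligand amphiregulin, had no probe that carried its symbol alone and is not analysed here.

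Total RNA was measured on 1-colour arrays in the established colorectal cancer line SW48 of human origin, with 1 sample a group. The first group carried the DDX3 overexpression plasmid together with a YAP1 knockdown plasmid (DDX3+YAPsi), the second the DDX3 plasmid without it (DDX3), and the third the empty plasmid pcDNA3.1 (vector). All 3 were stable cells selected with the antibiotic G418. DDX3 is an RNA helicase and YAP1 a transcriptional coactivator of the Hippo pathway. The sources used here do not say whether the stable cells were clones or pools, nor how the 2 technical replicates of each sample were joined. No library had the knockdown plasmid without the DDX3 plasmid, so an effect of the knockdown plasmid that needs no DDX3 cannot be told apart.

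The receptors are transmembrane tyrosine kinases that pair when a ligand binds and then signal through the RAS and ERK kinases and through PI3 kinase. ERBB2 binds no known ligand and ERBB3 has a weak kinase, so both act mainly as partners. The ligands are made as membrane proteins that proteases, chiefly ADAM17, cut free from the cell surface. In colorectal cancer, antibodies to EGFR are used in treatment, and AREG and EREG levels in tumours have been studied as markers of the response to them.

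Deposited intensities were scaled so that the 75th percentile of each library met at a common value, and log2 was taken. A floor was set at the median of all probes of a library, at scaled intensities of 411 in DDX3+YAPsi, 382 in DDX3 and 378 in vector. A probe counted as measured in a comparison where both values reached the floor. Each difference is the first library minus the second on the log2 scale, without a replicate and without a test. Precision is limited by the small number of arrays. The one internal gauge was the spread between probes of the same gene. Such probes are read from the same libraries, so this spread holds no variation between libraries. For genes with 2 or more measured probes its median SD was 0.17 for DDX3 minus vector, 0.15 for DDX3+YAPsi minus DDX3 and 0.19 for DDX3+YAPsi minus vector. In the same order its 95th percentile was 0.50, 0.47 and 0.58.

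The labels were checked first on the targeted genes. In these bulk samples fewer cells of a type and less RNA per cell cannot be told apart. The dimmer DDX3X probe had scaled intensities of 813 in DDX3+YAPsi, 879 in DDX3 and 1975 in vector, and the brighter one had 48085, 57967 and 49549 in the same libraries. These stood at -1.17 and 0.23 for DDX3 minus vector, and at -1.28 and -0.04 for DDX3+YAPsi minus vector. Neither DDX3X probe was thus 2-fold higher in a library labelled with the DDX3 plasmid. The dimmer one was more than 2-fold lower in both such libraries, opposite to the labels. YAP1 had 20768 in DDX3+YAPsi, 20279 in DDX3 and 18298 in vector, so it was not lower in the library labelled DDX3+YAPsi. The groups are therefore called the libraries labelled DDX3+YAPsi, DDX3 and vector, and each direction below rests on those labels. The annotation used gives no probe positions, and a DDX3X probe for sequence that the plasmid lacks could not serve as a check. Of 11 colorectal epithelial markers on the array, 8 reached the floor in every library. EPCAM, CDH1, KRT19 and CDX2 were far above it, whereas CDH17, KRT20, CDX1 and LGALS4 were much dimmer, at 411 to 1034. VIL1 and GPA33 were below the floor in all 3, and KRT8 in DDX3+YAPsi alone. Of 8 fibroblast markers 7, of 7 leukocyte markers 5 and of 5 endothelial markers 3 were below the floor in all 3 libraries. COL1A1, CD14 and CD68 reached it in all 3, and CDH5 and VWF in some.

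Promoter sequences of the members are shown for the motifs they hold. They come from RefSeq (GRCh38.p14), and the promoter table used here listed 11 for 9 of the 10 genes, all but ERBB3. A promoter here is 250 bases before to 50 bases after a start site. Capitals mark a match on either strand to GGAATG, the core of the TEAD motif through which YAP1 acts, to TGANTCA, the AP-1 motif, or to TGACGTCA, the CRE motif. The main EGFR promoter and the HBEGF promoter are shown because these genes had the largest measured differences above 0 between the libraries labelled DDX3 and vector. The other EGFR promoter, EREG and EGF are shown because they are the promoters with a TEAD match.
EGFR, upstream start, chr7:55018767-55019066, plus strand: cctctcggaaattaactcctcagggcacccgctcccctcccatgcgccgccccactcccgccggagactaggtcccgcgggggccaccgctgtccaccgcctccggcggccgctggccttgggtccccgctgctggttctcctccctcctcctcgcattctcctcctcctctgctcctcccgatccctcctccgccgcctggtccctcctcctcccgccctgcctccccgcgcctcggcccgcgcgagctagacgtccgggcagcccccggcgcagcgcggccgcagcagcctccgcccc
EGFR, downstream start, chr7:55109589-55109888, plus strand: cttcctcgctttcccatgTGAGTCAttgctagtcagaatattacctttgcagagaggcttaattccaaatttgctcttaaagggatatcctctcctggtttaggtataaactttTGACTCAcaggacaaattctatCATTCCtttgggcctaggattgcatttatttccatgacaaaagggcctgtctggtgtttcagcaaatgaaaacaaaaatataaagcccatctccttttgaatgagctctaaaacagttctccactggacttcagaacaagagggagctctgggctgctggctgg
HBEGF, chr5:140346554-140346853, minus strand: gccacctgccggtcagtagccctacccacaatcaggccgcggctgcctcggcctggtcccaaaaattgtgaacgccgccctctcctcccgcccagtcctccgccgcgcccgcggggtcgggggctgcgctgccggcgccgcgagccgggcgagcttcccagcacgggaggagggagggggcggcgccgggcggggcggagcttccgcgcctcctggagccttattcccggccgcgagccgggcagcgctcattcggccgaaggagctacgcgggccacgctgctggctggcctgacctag
EREG, chr4:74364895-74365194, plus strand: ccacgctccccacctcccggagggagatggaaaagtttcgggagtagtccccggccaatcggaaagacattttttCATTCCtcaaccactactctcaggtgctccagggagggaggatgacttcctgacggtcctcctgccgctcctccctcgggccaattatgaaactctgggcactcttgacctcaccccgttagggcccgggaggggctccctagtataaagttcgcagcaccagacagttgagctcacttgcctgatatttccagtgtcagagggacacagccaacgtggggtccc
EGF, chr4:109912633-109912932, plus strand: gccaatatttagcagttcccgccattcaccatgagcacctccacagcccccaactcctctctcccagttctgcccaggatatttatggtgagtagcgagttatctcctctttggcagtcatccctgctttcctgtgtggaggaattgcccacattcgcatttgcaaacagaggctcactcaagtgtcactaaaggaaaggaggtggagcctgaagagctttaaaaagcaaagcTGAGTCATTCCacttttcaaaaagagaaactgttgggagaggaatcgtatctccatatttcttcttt

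The TEAD motif was found in 3 of these 11 promoters and in 14.0% of all 35116 promoters of the table. The AP-1 motif was found in 3, namely the downstream EGFR start, EGF and ERBB2, against 7.71% of all promoters. The CRE motif was found in 1, AREG, against 1.85%. In EGF the AP-1 and TEAD matches overlap by 2 bases. The downstream EGFR start holds 2 AP-1 matches and 1 TEAD match. The upstream EGFR start, HBEGF, BTC, ERBB4 and both TGFA promoters hold none of the 3 motifs. A match is a string of letters and not a shown binding site.

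Of the 15 probes, 8 reached the floor in all 3 libraries, 2 in 2 libraries and 5 in none. The 8 were 1 probe of EGFR, the ERBB2 probe, all 3 of ERBB3, and the probes of HBEGF, TGFA and BTC. EREG and EGF were below the floor throughout. Among these 8 probes the library labelled DDX3 was the brightest for 4 (EGFR, ERBB2, TGFA and BTC), the library labelled DDX3+YAPsi for HBEGF, and the library labelled vector for the 3 ERBB3 probes. Over the 12940 named probes at the floor in all 3 libraries, these shares were 29.7% for DDX3, 38.8% for DDX3+YAPsi and 31.5% for vector.

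**Figure D1:**
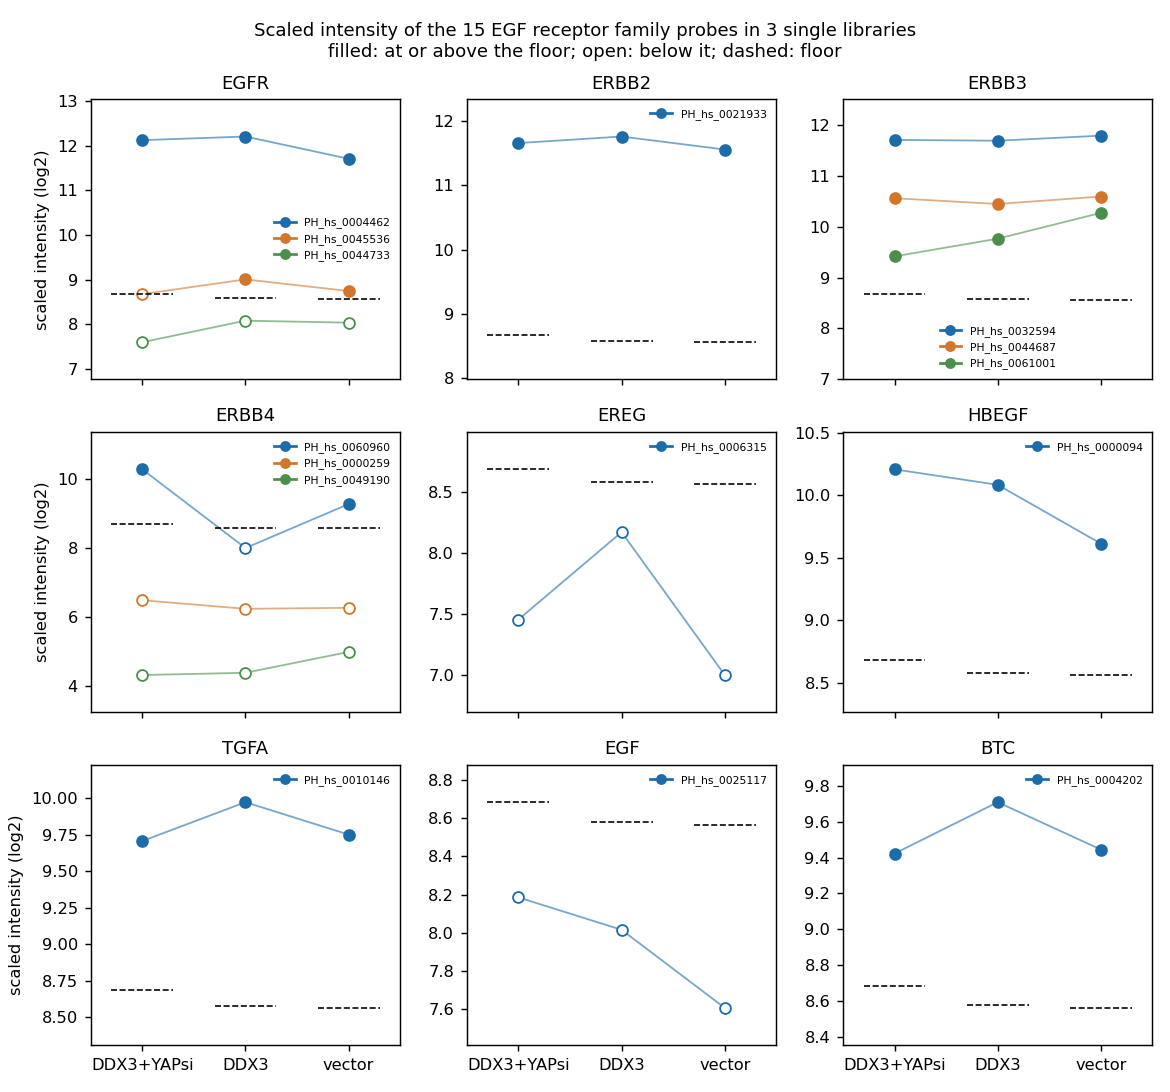
Scaled intensity (log2, vertical axis) of the 15 probes of the EGF receptor family and its ligands in each of the 3 single libraries, with 1 panel a gene, 1 colour a probe, the floor of each library dashed, and lines joining values of 1 probe. The EGFR probe PH_hs_0004462 lay at 12.12, 12.20 and 11.71 in DDX3+YAPsi, DDX3 and vector, and EREG lay below the floor in all 3.

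EGFR, the receptor that the antibodies bind, was read by 3 probes. The probe PH_hs_0004462 had scaled intensities of 4458 in DDX3+YAPsi, 4719 in DDX3 and 3340 in vector. The libraries labelled DDX3+YAPsi and DDX3 were thus above the library labelled vector and close to each other on this scale. The log2 difference was 0.50 for DDX3 minus vector (1.41-fold), above 95.8% of 13161 measured named probes, and 0.42 for DDX3+YAPsi minus vector (1.33-fold), above 88.9% of 13098. DDX3+YAPsi minus DDX3 was -0.08, smaller than the usual spread between probes of a gene. Without scaling, DDX3+YAPsi minus vector turned to -0.32 and DDX3+YAPsi minus DDX3 was -0.63. Over all 31741 probes, below the floor or not, the medians were then -0.60 and -0.45. Most of the probes that set adds are dim, so these medians are no like baseline for this probe.

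The other EGFR probes were dimmer. PH_hs_0045536 had 409 in DDX3+YAPsi, 513 in DDX3 and 428 in vector, so the library labelled DDX3 was the highest and the library labelled DDX3+YAPsi was just short of the floor. Its difference for DDX3 minus vector was 0.26, and DDX3+YAPsi was at least 1.25-fold lower than DDX3, counted against the floor. PH_hs_0044733 had 194, 270 and 262 in DDX3+YAPsi, DDX3 and vector and was below the floor in each, so no fold is given. The 2 measured probes differed by 0.50 and 0.26 for DDX3 minus vector, an SD of 0.17 between them. The mean over all 3 probes, the dimmest included, was 0.27 for DDX3 minus vector, -0.30 for DDX3+YAPsi minus DDX3 and -0.03 for DDX3+YAPsi minus vector. In the last of these the dimmer probes, at -0.07 and -0.44, ran against the 0.42 of the bright one.

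ERBB2, the partner without a ligand, had scaled intensities of 3227 in DDX3+YAPsi, 3463 in DDX3 and 3010 in vector. The differences were 0.20 for DDX3 minus vector, -0.10 for DDX3+YAPsi minus DDX3 and 0.10 for DDX3+YAPsi minus vector. The last of these turned to -0.02 with median scaling and -0.64 without scaling.

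ERBB3, the receptor with the weak kinase that couples to PI3 kinase, was lower on all 3 of its probes both in DDX3+YAPsi and in DDX3 than in the library labelled vector, by unequal amounts. PH_hs_0032594 had 3340 in DDX3+YAPsi, 3303 in DDX3 and 3538 in vector. PH_hs_0044687 had 1509, 1394 and 1544 in the same libraries. PH_hs_0061001 had 683, 869 and 1236. The first 2 probes were nearly level over the libraries, whereas the third was lowest in DDX3+YAPsi, intermediate in DDX3 and highest in vector.

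For DDX3 minus vector the 3 ERBB3 differences were -0.10, -0.15 and -0.51, and for DDX3+YAPsi minus vector they were -0.08, -0.03 and -0.86. The value of the third probe ranked 110 from the lowest of 13098, a 1.81-fold lower intensity. Without scaling that probe was at -1.60, more than 2-fold lower, beside a median of -0.60 over all 31741 probes, below the floor or not. That wider set is no like baseline for a measured probe. Between DDX3+YAPsi and DDX3 the probes disagreed in direction, at 0.02, 0.11 and -0.35. The SD between the ERBB3 probes was 0.46 for DDX3+YAPsi minus vector. That is close to the 90th percentile of such SDs (0.47) and well above their median (0.19). With 2 of 3 probes near level, the gene mean of -0.32 for DDX3+YAPsi minus vector rests on PH_hs_0061001.

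ERBB4, a receptor for neuregulins and several EGF-like ligands, had the widest swing of any member, on 1 of its 3 probes. PH_hs_0060960 had 1232 in DDX3+YAPsi, 254 in DDX3 and 614 in vector. It was highest in the library labelled DDX3+YAPsi and did not reach the floor in DDX3. Counted against the floor, DDX3+YAPsi was at least 3.23-fold higher than DDX3, and DDX3 was at least 1.61-fold lower than vector.

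DDX3+YAPsi minus vector on this probe was 1.00 (2.01-fold), just past the 2-fold threshold and 51 from the highest of 13098 measured probes. With median, quantile or loess scaling it was between 0.88 and 0.95, and without scaling 0.26. The other 2 ERBB4 probes were far below the floor everywhere. PH_hs_0000259 had 89.3 in DDX3+YAPsi, 75.2 in DDX3 and 76.7 in vector, and PH_hs_0049190 had 19.9, 20.9 and 31.7. At that level they give no fold, so no second probe bears on the swing.

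Among the ligands, HBEGF, the heparin-binding ligand of EGFR and ERBB4, differed most among those measured. It had scaled intensities of 1182 in DDX3+YAPsi, 1085 in DDX3 and 783 in vector. The libraries labelled DDX3+YAPsi and DDX3 both lay above the library labelled vector. The difference was 0.47 for DDX3 minus vector (1.39-fold, ranked 653 from the highest of 13161 probes) and 0.59 for DDX3+YAPsi minus vector (1.51-fold, ranked 529 of 13098). DDX3+YAPsi minus DDX3 was 0.12, within the usual spread between probes of a gene. Without scaling, HBEGF was at -0.15 for DDX3+YAPsi minus vector. The median of all 31741 probes, below the floor or not, was then at -0.60. That set is wider than the measured probes, so its median is no like baseline for HBEGF.

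TGFA, a ligand of EGFR made by many epithelial cells, had 836 in DDX3+YAPsi, 1006 in DDX3 and 862 in vector. BTC, betacellulin, which binds EGFR and ERBB4, had 686 in DDX3+YAPsi, 837 in DDX3 and 697 in vector. In both genes the library labelled DDX3 stood above the other two, which were nearly level. The differences were 0.22 and 0.26 for DDX3 minus vector, -0.27 and -0.29 for DDX3+YAPsi minus DDX3, and -0.04 and -0.02 for DDX3+YAPsi minus vector, each given for TGFA and then BTC. All of them lay inside the central 90% of measured probes.

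EREG, epiregulin, had 175 in DDX3+YAPsi, 288 in DDX3 and 128 in vector, all below the floor. EGF, the founding ligand, had 291 in DDX3+YAPsi, 259 in DDX3 and 195 in vector and was below the floor too. For EREG the library labelled DDX3 held the highest value and for EGF the library labelled DDX3+YAPsi, but no fold is given at this level. The promoters of both hold a TEAD match (above), and nothing is drawn from that here.

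**Figure D2:**
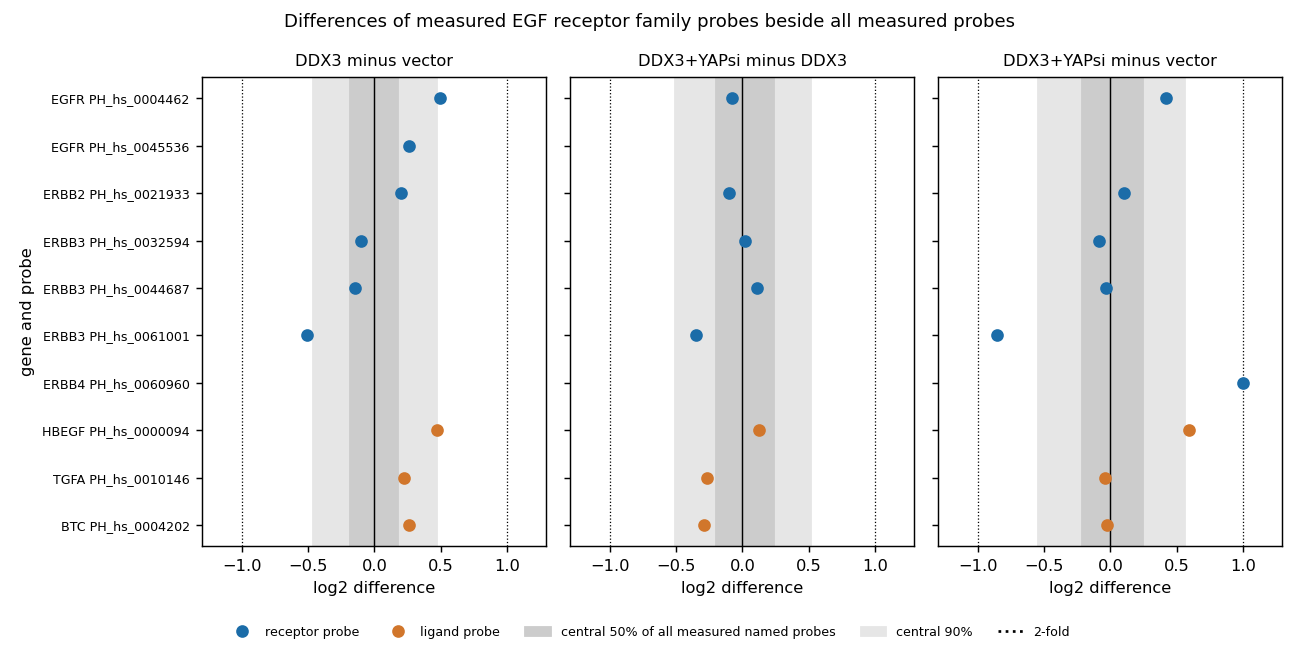
Log2 difference (horizontal axis) of each member probe measured in a comparison, beside the central 50% and 90% of all measured named probes (grey bands), with dotted lines at 2-fold. HBEGF stood at 0.47, 0.12 and 0.59 in the 3 panels, and the ERBB4 probe at 1.00 is the 1 point past 2-fold.

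Between the libraries labelled DDX3 and vector, 6 of 9 measured member probes lay above 0 and their median was 0.22. By role these were 3 of 6 receptor probes, with a median of 0.05, and all 3 ligand probes, with a median of 0.26. Over all 13161 measured named probes 48.8% lay above 0, with a median of -0.01. No member probe was 2-fold higher or lower, where 0.251% of all probes were higher and 0.243% lower. Outside the central 90% of all probes (-0.47 to 0.47) were EGFR (PH_hs_0004462) and HBEGF on the high side and ERBB3 (PH_hs_0061001) on the low side. HBEGF lay at the edge of that band, at 0.4703 against an upper limit of 0.4694. Without scaling the median of the members was 0.03. Over all 31741 probes, below the floor or not, the median was -0.16 without scaling and 0.04 with it. That set is wider than the measured probes above, so its median is no like baseline for the members.

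Between the libraries labelled DDX3+YAPsi and DDX3, 8 member probes were measured, 3 lay above 0 and the median was -0.09. Over all 13109 measured probes 52.2% lay above 0, with a median of 0.02. The 3 were HBEGF and the brighter ERBB3 probes, at 0.02 to 0.12. No member probe was 2-fold apart, where 0.221% of all probes were higher and 0.221% lower, and none lay outside the central 90% of all probes (-0.51 to 0.52). The lowest were ERBB3 (PH_hs_0061001) at -0.35, BTC at -0.29 and TGFA at -0.27. Without scaling 0 of the 8 lay above 0, with a median of -0.64. Over all 31741 probes, below the floor or not, the median was -0.45 without scaling and 0.09 with it. It is therefore no like baseline for the measured members.

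Between the libraries labelled DDX3+YAPsi and vector, 9 member probes were measured, 4 lay above 0 and the median was -0.02, against 52.4% of all 13098 measured probes above 0 and a median of 0.02. The ERBB4 probe was 2-fold higher, where 0.397% of all probes were, and no member was 2-fold lower, where 0.382% were. At 1.5-fold, ERBB4 and HBEGF were higher (4.27% of all probes) and ERBB3 (PH_hs_0061001) was lower (4.03%). Each of the 3 libraries serves in 2 comparisons. A deviation of any 1 library alone would move both comparisons that use it.

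**Figure D3:**
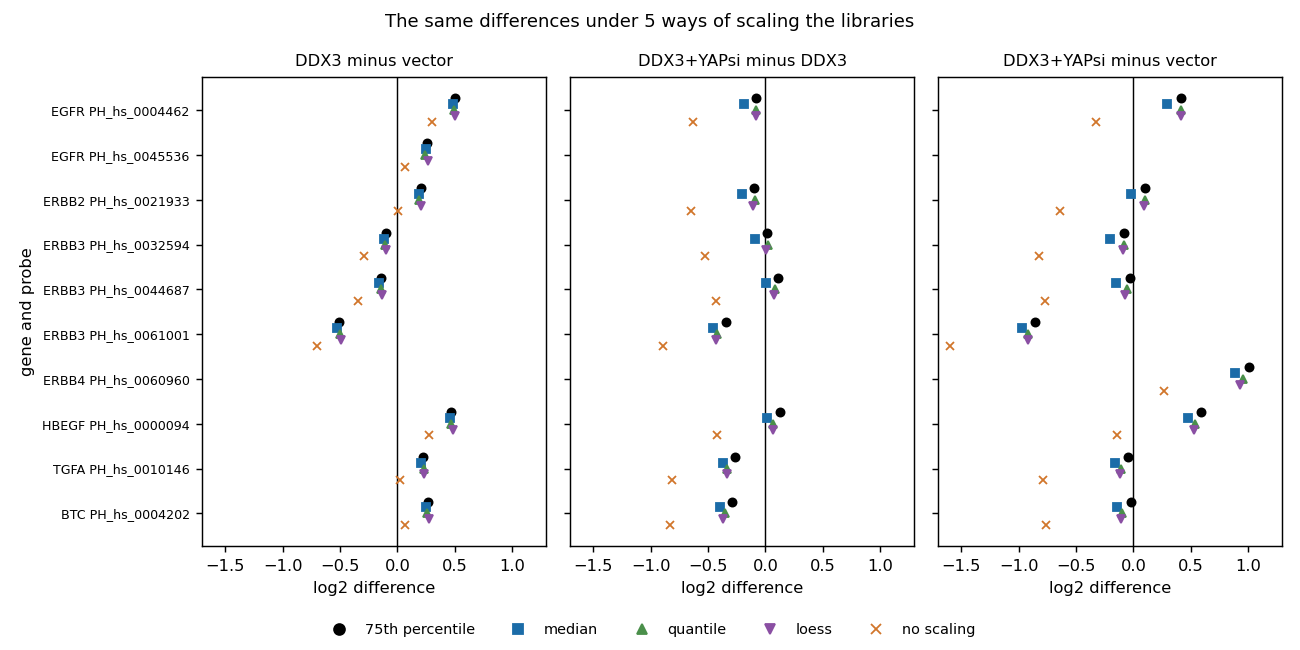
Log2 differences (horizontal axis) of the measured member probes under the 75th percentile scaling used in the text and under median, quantile, loess and no scaling. DDX3 minus vector kept its sign for every measured member probe under all of these, whereas without scaling HBEGF and the brighter EGFR probe were below 0 in DDX3+YAPsi minus vector, at -0.15 and -0.32.

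Other genes of the receptor pathway were described by list, each gene as the mean of its probes. No gene of the 4 lists below was 2-fold apart in any comparison. Over all measured genes 0.335% were 2-fold apart for DDX3 minus vector, 0.275% for DDX3+YAPsi minus DDX3 and 0.477% for DDX3+YAPsi minus vector. The shares of all genes above 0 were 48.8%, 52.6% and 52.2% in the same order.

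Genes of ligand shedding and trafficking had medians of -0.01 for DDX3 minus vector, -0.10 for DDX3+YAPsi minus DDX3 and 0.01 for DDX3+YAPsi minus vector, with 6, 6 and 7 of 13 measured genes above 0. The main ligand protease ADAM17 had 3953 in DDX3+YAPsi, 5050 in DDX3 and 5086 in vector, and ADAM10, the protease that cuts EGF and BTC, had 4783, 5628 and 6352. Both were lowest in the library labelled DDX3+YAPsi, at -0.36 and -0.41 for DDX3+YAPsi minus vector. ADAM15, a brighter gene of the same family, was highest there, with 70587 in DDX3+YAPsi, 50551 in DDX3 and 59869 in vector. It stood at 0.48 for DDX3+YAPsi minus DDX3. The inactive rhomboid genes RHBDF1 and RHBDF2, which carry ADAM17 to the cell surface, were also higher in DDX3+YAPsi than in DDX3, at 0.43 and 0.48. FRMD8, which stabilises these rhomboids, was at 0.45 for DDX3+YAPsi minus vector. TIMP1, a metalloprotease inhibitor, was at 0.27 for DDX3 minus vector and -0.55 for DDX3+YAPsi minus DDX3. CNIH was the furthest from 0 of the list in both comparisons with vector, at -0.32 for DDX3 and -0.46 for DDX3+YAPsi.

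Adaptors and proximal signalling genes had 5 of 19 measured genes above 0 for DDX3 minus vector, with a median of -0.11, and 12 of 19 for DDX3+YAPsi minus DDX3, with a median of 0.13. PTPN11, the phosphatase SHP2 that acts below the receptors, ran against the list in both, with 16164 in DDX3+YAPsi, 22898 in DDX3 and 15627 in vector. It stood at 0.55 and -0.50, so the library labelled DDX3 was the high one. STAT5B was at -0.37 and 0.38, and CRKL at -0.38 and 0.27. For DDX3+YAPsi minus vector the median was 0.01 with 10 of 19 above 0, and the docking protein GAB1 was at -0.49.

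Genes of receptor endocytosis and degradation were all measured, 20 of 20, with medians of -0.03, 0.04 and 0.06 for DDX3 minus vector, DDX3+YAPsi minus DDX3 and DDX3+YAPsi minus vector, and 8, 10 and 13 genes above 0. RNF41, a ubiquitin ligase that sends ERBB3 to degradation, was at -0.48 for DDX3 minus vector, with its 2 probes at -0.48 and -0.48. TSG101, a subunit of the complex that sorts receptors to the lysosome, was at -0.54 for DDX3+YAPsi minus DDX3 and -0.67 for DDX3+YAPsi minus vector. STAM2 was at 0.45 for DDX3 minus vector, but its 2 probes stood at -0.18 and 1.07.

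Feedback inhibitors of the receptors had medians of 0.03 over 11 measured genes, 0.05 over 10 and 0.11 over 10 in the same order of comparisons, with 6 genes above 0 in each. SOCS3, an inhibitor of cytokine and growth factor receptors, had 830 in DDX3+YAPsi, 620 in DDX3 and 455 in vector. It was at 0.45 for DDX3 minus vector, 0.42 for DDX3+YAPsi minus DDX3 and 0.87 for DDX3+YAPsi minus vector, with 2 probes at 0.82 and 0.92 in the last. LRIG3 was at -0.48 for DDX3 minus vector and PTPRJ at 0.50 for DDX3+YAPsi minus DDX3. ERRFI1, the inhibitor that binds the EGFR kinase, had 390 in DDX3+YAPsi, 493 in DDX3 and 367 in vector, and reached the floor in DDX3 alone.

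**Figure D4:**
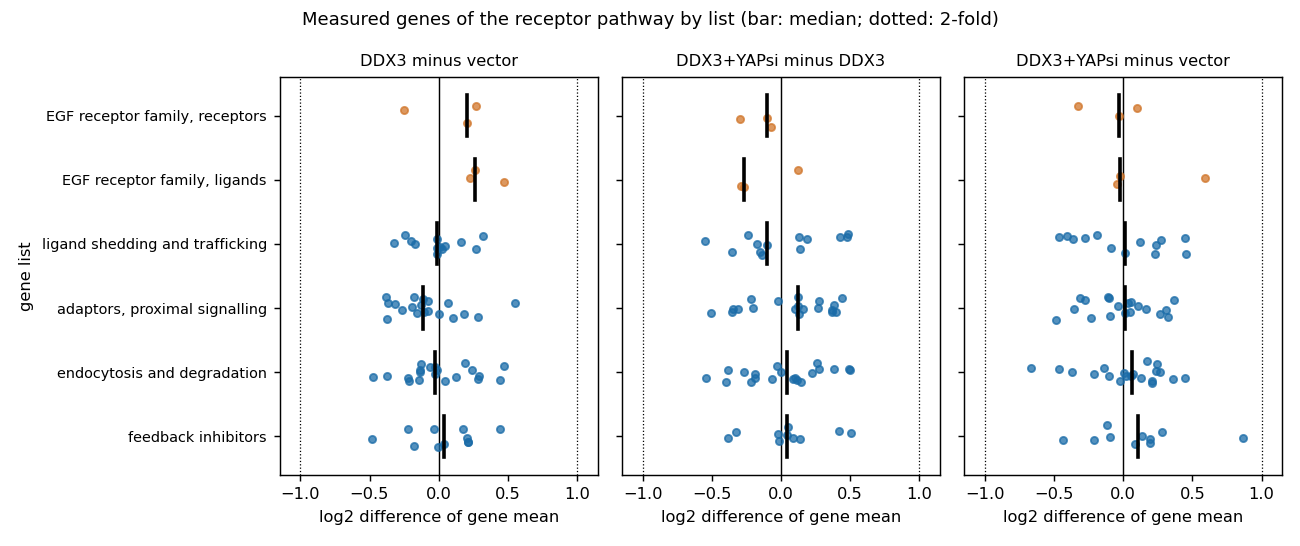
Log2 difference of gene means (horizontal axis) for the measured members and for the measured genes of 4 pathway lists in the 3 comparisons, with a bar at each list's median and dotted lines at 2-fold. Adaptor genes had medians of -0.11, 0.13 and 0.01 in the 3 panels, and the rightmost point of the last panel is SOCS3 at 0.87.

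The genes whose pattern over the 3 libraries was closest to a member were found for the 2 members with the widest range among those measured in all 3, HBEGF with a range of 0.59 and ERBB3 with 0.32 (log2, gene means). Likeness was the Euclidean distance between the 3 values after each gene was centred on its own mean, over 9337 other genes. Closest to HBEGF were RAB11FIP2 (0.016), PLK3 (0.024), PYY2 (0.026), ZNF217 (0.028) and MDM4 (0.028). PLK3, a stress-responsive kinase, had 2683 in DDX3+YAPsi, 2453 in DDX3 and 1811 in vector. Closest to ERBB3, whose mean joins probes that differ (above), were RNMTL1 (0.003), SUDS3 (0.004), DSN1 (0.007), PLBD1 (0.010) and HINFP (0.011). Within a distance of 0.1 lay 115 genes for HBEGF and 527 for ERBB3, so a pattern over 3 libraries picks out no small group.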

How the data were processed

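RNA of each sample was labelled with Cy5 for 1-colour arrays in 2 technical replicates, per the labels. The authors deposited 1 intensity value per probe and sample, which by its range is linear. The sources used here do not state their background correction, scaling or flags. Deposited medians were 305 in DDX3+YAPsi, 414 in DDX3 and 469 in vector, so the overall level differed between libraries. Scaling to the 75th percentile used factors of 1.35, 0.92 and 0.81 in that order. After scaling, a change common to most genes is hidden.

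Gene symbols came from the platform annotation and may be outdated. Of the probes, 24658 had 1 symbol, 1002 several and 6081 none given there, and the last 2 kinds were left out of gene values. Member probes were kept apart, and other genes took the mean log2 value of their probes. The members and gene lists were chosen with earlier results of these data known. All member probes are named. From each other list up to 4 genes with the largest differences per comparison may be named. ADAM17, ERRFI1 and the levels and some differences beside rule-named values (CRKL, ADAM10) lie outside that rule and were chosen after their values were seen. Genes of like pattern were the 5 closest for each of 2 members, with clone-based symbols passed over. Protein sequences were not analysed here. Steps were tested on simulated data with effects well past 2-fold, placed in bright probes only. That test does not bear on smaller differences or on probes near the floor. Alternatives were median, quantile, loess and no scaling, floors at the 25th and 75th percentiles and none, the brightest probe of each gene, and a 1.5-fold threshold. Python 3.11.15, pandas 2.3.3, numpy 2.4.6 and statsmodels 0.14.6 were used.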

Additional observations from a re-analysis of the deposited data

How the results depend on the processing

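No paired analysis was possible because each group held 1 sample, and for the same reason no sample could be left out. An alternative value counted as moved when it shifted by more than the median SD between probes of a gene, or a count by over 1.5 times. Without scaling, the median of the measured member probes was 0.0269 for DDX3 minus vector, -0.64 for DDX3+YAPsi minus DDX3 and -0.76 for DDX3+YAPsi minus vector, with 0 and 1 probes above 0 in the last 2 of these. In those 2 comparisons, 3 and 12 genes of the pathway lists were then past 2-fold, all of them lower. Medians over all 31741 probes, below the floor or not, were -0.45 and -0.60 without scaling, and 0.09 and 0.14 with it. That set is wider than the measured probes and is no like baseline for the members. The share of all genes past 2-fold without scaling is not given. The 1 member probe past 2-fold for DDX3+YAPsi minus vector, of ERBB4, became 0 with median, quantile or loess scaling and with a floor at the 75th percentile, and 3 with a 1.5-fold threshold. Without scaling the count was again 1, but of another probe in the other direction, ERBB3 (PH_hs_0061001) at -1.60, and ERBB4 was at 0.26.

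The floor set which probes were counted, so the totals behind the counts below differ between floors. With a floor at the 25th percentile, 2 member probes were past 2-fold for DDX3 minus vector and 1 for DDX3+YAPsi minus DDX3, where 5 lay above 0. With none, these counts were 2, 1 and 6, and 7 lay above 0 for DDX3+YAPsi minus vector. With a floor at the 75th percentile, only 1 probe each of EGFR, ERBB2 and ERBB3 was measured. Of these, 2, 1 and 2 lay above 0 in the 3 comparisons, in the order of the text. At the lower floors the probes past 2-fold were EREG and ERBB4 (PH_hs_0060960) for DDX3 minus vector. For DDX3+YAPsi minus DDX3 it was that ERBB4 probe. The ERBB4 probe fell short of the main floor in the library labelled DDX3 alone, and the EREG probe in every library. Shares over all probes or genes are not given for these alternatives, so the counts are no result about the members. With the brightest probe of each gene, 2 genes of the pathway lists were past 2-fold for DDX3 minus vector and 2 for DDX3+YAPsi minus vector, NRG3 and STAM2 in both. With a 1.5-fold threshold 2 were past it for DDX3+YAPsi minus vector, TSG101 and SOCS3. All 38 single probe values and list medians moved without scaling, and 1 each with a floor at the 75th percentile and with none. Of those with a value under the other alternatives, none moved. The cause of these shifts was not tested beyond what each alternative does by construction.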

Other observations

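The remaining ligands of the receptors, epigen (EPGN) and the neuregulins NRG1 to NRG4, were read by 12 probes. Of these, 9 were below the floor in all 3 libraries, and no gene mean of the 5 genes was measured in any comparison. The 3 probes above the floor were 1 each of NRG1, NRG2 and NRG3. The NRG3 probe PH_hs_0048607 had scaled intensities of 2629 in DDX3+YAPsi, 2633 in DDX3 and 1099 in vector. The libraries labelled DDX3+YAPsi and DDX3 were level with each other and above the library labelled vector, at 1.26 for DDX3 minus vector (2.40-fold) and 1.26 for DDX3+YAPsi minus vector (2.39-fold). The second NRG3 probe, PH_hs_0036036, was below the floor, with 62.3 in DDX3+YAPsi, 58.9 in DDX3 and 38.9 in vector.

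The NRG1 probe PH_hs_0048437 had 1151 in DDX3+YAPsi, 860 in DDX3 and 936 in vector, and its other 5 probes were below the floor. The NRG2 probe PH_hs_0028351 had 617 in DDX3+YAPsi, 402 in DDX3 and 472 in vector. Both were highest in the library labelled DDX3+YAPsi, at 0.42 and 0.62 for DDX3+YAPsi minus DDX3. These probes were singled out after their values were seen.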
